A study of Mus musculus with 12 samples.

Results

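Ces2e, Cd80 and 4833427G06Rik are 3 genes of the 24343 with a unique name that were measured by RNA-seq in HT22 cells, an immortalized mouse hippocampal neuronal line. They were selected by their levels in these libraries, being near 0 in control cells and highest in cells given Ncoa4 siRNA and an iron chelator together. The 12 libraries formed 4 groups of 3 biological replicates. Cells given control siRNA and kept in normal iron medium (siControl) were the baseline. The siNCOA4 group received Ncoa4 siRNA in normal iron medium, the siControl+DFO group received control siRNA and 100 µM of deferoxamine (DFO) for 24 h, and the siNCOA4+DFO group received Ncoa4 siRNA and the same DFO treatment. All 4 groups were therefore transfected by lipid delivery of an siRNA, and none was untransfected. Since the levels in siControl and siNCOA4+DFO chose the genes, every comparison of these genes with either group is a description with no test. The difference between siControl+DFO and siNCOA4 takes its means from neither of those groups and was tested.

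NCOA4 is the receptor that carries the iron storage protein ferritin into the lysosome, where iron is released, a process named ferritinophagy. DFO is an iron chelator that limits the iron available to cells from outside. The combination is thus meant to limit both the stored and the imported source of iron, and the 4 groups ask how each limit alone and both together bear on transcript levels. Iron itself was not measured in these libraries. Ces2e encodes a carboxylesterase of the CES2 family, enzymes of the endoplasmic reticulum that hydrolyse ester and amide bonds of drugs and lipids and are best known from liver and intestine. Cd80 encodes B7-1, a membrane ligand of antigen-presenting cells that binds CD28 and CTLA-4 on T cells. 4833427G06Rik is listed in RefSeq as Hoatz (Hoatzin), a gene associated with cilia and flagella.

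The libraries carried the knockdown that the labels name. Ncoa4 was at 6.22 ± 0.222 FPKM (SD, n = 3) in siControl and at 0.871 ± 0.0929 in siNCOA4, and at 8.18 ± 0.600 in siControl+DFO and 1.24 ± 0.363 in siNCOA4+DFO. FPKM corrects the fragments of a gene for the length of its transcript and for the size of the library, so that levels can be compared between genes. Total counts were not used here. Steps between low FPKM values gave relative depths between 0.928 and 1.41, with siControl replicate 1 set to 1, so the deepest library held 1.52 times the fragments of the shallowest. The neuronal identity of the line was weakly marked. Of 10 neuron markers, 1 (Tubb3) reached 0.5 FPKM in at least 3 libraries, and the sum of the 10 lay between 7.62 and 8.68 FPKM in siControl, 4.66 and 6.45 in siNCOA4, 12.1 and 13.6 in siControl+DFO, and 5.70 and 9.97 in siNCOA4+DFO. In bulk libraries such as these, fewer cells that use a gene and less RNA per cell cannot be told apart.

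On the mouse genome GRCm38, in the GENCODE M21 annotation, Ces2e lies at chr8:104926260-104934672 on the plus strand and has 2 annotated transcripts over 12 merged exons. Cd80 lies at chr16:38455561-38496335 on the plus strand, with 3 transcripts over 7 merged exons. 4833427G06Rik lies at chr9:51081115-51102078 on the minus strand, with 1 transcript over 6 exons. The bases just before 1 RefSeq start site of each member are shown here, together with those of Ces2f, the next gene after Ces2e in the same cluster. They are shown because the members and Ces2f had similar orders of levels across the groups, so that their promoters can be set side by side. Sequences are 5′ to 3′ on the strand of the gene, from RefSeq on GRCm38.p6. Capitals mark stretches of at least 9 bases that the Ces2e or Ces2f window shares with the window of another of Ces2e, Ces2f and Ces2g, the second gene after Ces2e. Stretches that abut form 1 run of capitals. The last run of Ces2f joins CTGGGCAAGGC and CTATATATT, which lie apart in the Ces2g window. The windows of Ces2e (chr8:104926010-104926259), Ces2f (chr8:104947106-104947355) and Cd80 (chr16:38458683-38458932) hold 250 bases, and that of 4833427G06Rik (chr9:51102079-51102146) holds the 68 bases up to the first base of Btg4.
Ces2e: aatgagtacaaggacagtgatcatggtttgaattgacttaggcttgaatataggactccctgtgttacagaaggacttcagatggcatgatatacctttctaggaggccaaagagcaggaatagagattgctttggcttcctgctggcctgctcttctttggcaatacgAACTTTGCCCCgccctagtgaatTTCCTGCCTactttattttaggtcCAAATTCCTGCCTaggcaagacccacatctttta
Ces2f: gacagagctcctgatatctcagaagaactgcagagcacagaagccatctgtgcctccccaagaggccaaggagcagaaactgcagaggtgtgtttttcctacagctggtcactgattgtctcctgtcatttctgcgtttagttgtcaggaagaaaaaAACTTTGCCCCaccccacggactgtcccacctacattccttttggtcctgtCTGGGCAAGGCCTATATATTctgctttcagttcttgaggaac
Cd80: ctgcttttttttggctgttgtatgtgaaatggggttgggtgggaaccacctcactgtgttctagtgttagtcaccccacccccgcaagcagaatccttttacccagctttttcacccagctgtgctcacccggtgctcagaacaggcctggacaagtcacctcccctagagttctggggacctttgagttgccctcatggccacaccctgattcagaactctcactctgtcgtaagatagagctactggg
4833427G06Rik: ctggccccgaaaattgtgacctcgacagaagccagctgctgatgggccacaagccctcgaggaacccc
The longest stretch shared by the Ces2e and Ces2f windows was the 11 bases AACTTTGCCCC, which begin at position -81 from the Ces2e start and -93 from that of Ces2f (-1 is the last base before the start) and were found on the same strand in 3 of 32851 RefSeq promoter windows of 250 bases, these genes included. Ces2e shared 13 bases, CAAATTCCTGCCT, with Ces2g, also found in 3 of the windows. Between the members, over windows of 250 bases that for 4833427G06Rik reach into Btg4, the longest shared stretch was 8 bases for Ces2e and 4833427G06Rik, at position -76 of the latter and so outside the bases shown, and 7 bases for Cd80 with either of the others. The RefSeq span of Cd80 begins upstream of the window shown, at base 38457430, and a GENCODE transcript at 38455561. The RefSeq span of 4833427G06Rik also reaches past its window, to base 51105834. That of Ces2g begins at base 104961596, inside its window (chr8:104961468-104961717), and the 13 bases shared with Ces2e lie within that span.

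Windows of 250 bases before the same starts were searched on both strands for short motifs by their letters alone. For 4833427G06Rik most of this window lies beyond the bases shown, inside the span of Btg4. The GC box GGGCGG was found once before Ces2e, on the minus strand at positions -72 to -67, and in 32.7% of all promoter windows. The CCAAT box was found once before 4833427G06Rik, on the minus strand at positions -169 to -165, which is outside the bases shown and inside the Btg4 span, and in 33.8% of all windows. The hypoxia response element cores ACGTG (16.6% of all windows) and GCGTG (28.2%), the AP-1 site TGAGTCA (4.46%), the TATA box TATAAA (12.4%), the p53 half-site (7.13%) and the NF-kB site (3.90%) had no match in the window of any member. Cd80 and Ces2f matched none of the motifs searched, while the window of Ces2g held a CCAAT box on the minus strand at positions -96 to -92 and a p53 half-site at -53 to -44, read on both strands. Both matches of Ces2g lie inside its RefSeq span, which begins within the window. A match is a string of letters and no evidence of a bound factor.

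In Ces2e none of the 4 groups overlapped, though the lowest levels rest on very few fragments. It was listed at 0 FPKM in all 3 siControl libraries. In siNCOA4 it was at 0.294, 0.556 and 0.623 FPKM, with a mean of 0.491 ± 0.174 (SD, n = 3). If the lowest value stands for 1 fragment, these libraries held about 1, 2 and 2 fragments of Ces2e. With depth taken into account, replicates 2 and 3 were at 1.83 and 2.29 times the lowest value. These are not whole multiples, so the numbers of fragments are rough. In siControl+DFO it was at 4.02, 7.0 and 2.24 FPKM in replicates 1 to 3, with a mean of 4.42 ± 2.40, the widest spread of the gene in relation to its mean among the DFO groups. In siNCOA4+DFO it was at 13.3, 16.0 and 11.1 FPKM, with a mean of 13.5 ± 2.43. Every siNCOA4+DFO library was above every siControl+DFO library, and DFO alone gave 32.8% and siNCOA4 alone 3.64% of the combined mean. Among the 11924 genes that passed a filter of at least 0.5 FPKM in at least 3 libraries, to which each member belongs through the libraries in which it was high, Ces2e ranked 8586 by mean level in siControl+DFO and 5390 in siNCOA4+DFO.

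In Cd80 the libraries with DFO stood apart from those without. In siControl it was at 0.210 and 0.335 FPKM in replicates 1 and 2 and listed at 0 in replicate 3, with a mean of 0.182 ± 0.169. In siNCOA4 it was at 0.322, 1.33 and 0.448 FPKM, with a mean of 0.700 ± 0.549. These groups overlapped, and replicate 2 of siNCOA4 was the high library of its group. In siControl+DFO it was at 18.9, 19.1 and 17.5 FPKM, with a mean of 18.5 ± 0.842, and the 3 libraries lay close together. In siNCOA4+DFO it was at 19.9, 25.4 and 19.5 FPKM, with a mean of 21.6 ± 3.30. The last groups did not overlap, but the gap between 19.1 and 19.5 FPKM was smaller than the spread within either group. DFO alone gave 85.5% of the combined mean and siNCOA4 alone 3.24%. If the lowest value stands for 1 fragment, the siControl libraries held 1, 2 and 0 fragments of Cd80, the siNCOA4 libraries 2, 8 and 3, and the siControl+DFO libraries 95, 113 and 98, so the levels without DFO rest on few fragments.

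4833427G06Rik was the member with the highest level after Ncoa4 siRNA alone. In siControl it was listed at 0 in replicates 1 and 3 and at 0.411 FPKM in replicate 2, with a mean of 0.137 ± 0.238. In siNCOA4 it was at 4.37, 2.04 and 4.09 FPKM, with a mean of 3.50 ± 1.27, and all of these libraries were above those of siControl. In siControl+DFO it was at 13.8, 12.1 and 12.4 FPKM, with a mean of 12.8 ± 0.888. In siNCOA4+DFO it was at 20.6, 14.4 and 13.6 FPKM, with a mean of 16.2 ± 3.85. The DFO groups overlapped, since replicate 3 of siNCOA4+DFO was below replicate 1 of siControl+DFO, and much of the gap between their means came from replicate 1 of siNCOA4+DFO. Without that library the siNCOA4+DFO mean was 14.0 FPKM, still above the siControl+DFO mean of 12.8 FPKM. The siNCOA4 mean was 21.6% and the siControl+DFO mean 78.8% of the combined mean. If the lowest value stands for 1 fragment, the siNCOA4 libraries held about 11, 5 and 11 fragments of the gene.

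**Figure D1:**
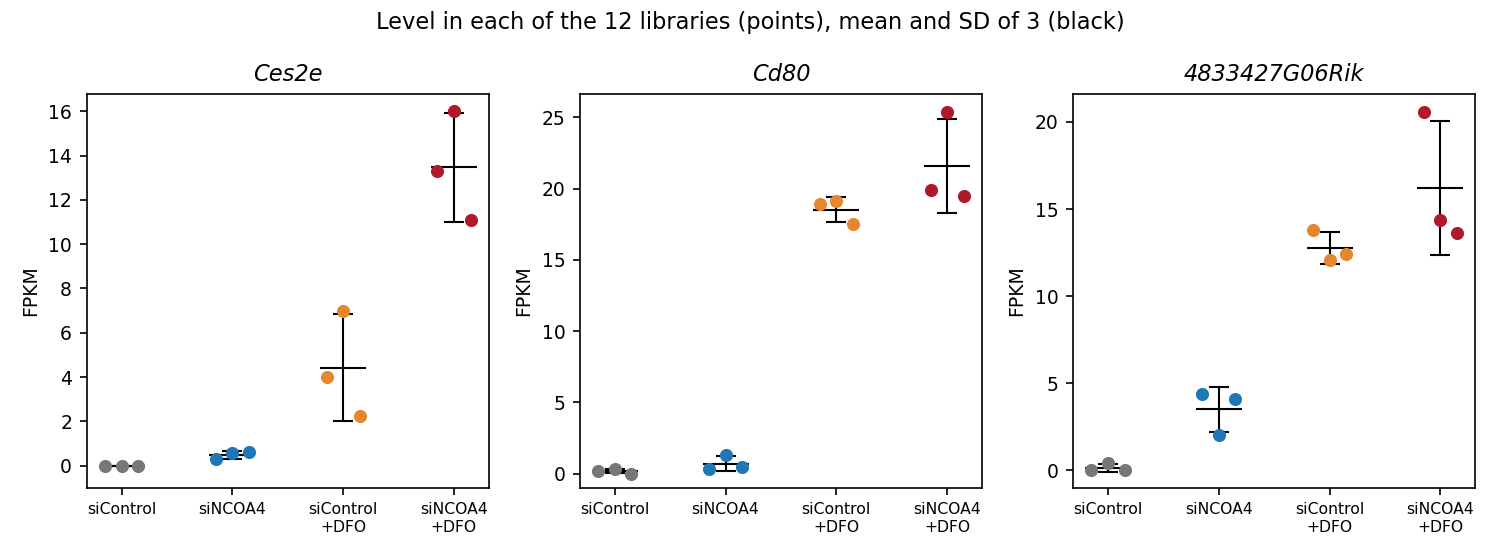
Level in FPKM (vertical axes, 1 scale per gene) of Ces2e, Cd80 and 4833427G06Rik in the 4 groups (horizontal axes); each point is 1 library and the black bars give the mean and SD of 3. Ces2e is at 4.42 FPKM with DFO and 13.5 FPKM with both treatments, Cd80 is at 1.33 FPKM or below in the 6 libraries without DFO and at 17.5 FPKM or above in the 6 with DFO, and 4833427G06Rik is at 3.50 FPKM after Ncoa4 siRNA alone.

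The order of the group means was the same for the 3 genes, with siControl lowest, then siNCOA4, then siControl+DFO, then siNCOA4+DFO. That the first was lowest and the last highest follows from how the genes were chosen. The neighbours in this order that overlapped were siControl and siNCOA4 for Cd80, and siControl+DFO and siNCOA4+DFO for 4833427G06Rik. For Ces2e no neighbours overlapped.

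The rises with the single treatments were set beside the rise with both. For Ces2e, the rises above the siControl mean were 0.491 FPKM with siNCOA4 and 4.42 FPKM with DFO, which sum to 4.91 FPKM, and the rise with both was 13.5 FPKM. The combined rise was thus 2.74 times the sum. For Cd80, single rises of 0.518 and 18.3 FPKM sum to 18.8 FPKM, and the combined rise was 21.4 FPKM, 1.14 times the sum. For 4833427G06Rik, single rises of 3.36 and 12.6 FPKM sum to 16.0 FPKM, and the combined rise was 16.1 FPKM. The excess over the sum was 8.56 FPKM for Ces2e, 2.62 FPKM for Cd80 and 0.0759 FPKM for 4833427G06Rik. The SD of the siNCOA4+DFO libraries was 2.43 FPKM for Ces2e, 3.30 FPKM for Cd80 and 3.85 FPKM for 4833427G06Rik. That of the siControl+DFO libraries was 2.40, 0.842 and 0.888 FPKM. Neither is the error of the excess, which rests on the means of all 4 groups. Leaving out single libraries, chosen as a check after these values were seen, gave an excess of 7.31 to 9.85 FPKM for Ces2e, 0.721 to 3.66 FPKM for Cd80 and -2.13 to 1.38 FPKM for 4833427G06Rik. The lowest value was reached without siNCOA4+DFO replicate 2 for Ces2e and Cd80 and without siNCOA4+DFO replicate 1 for 4833427G06Rik, whose excess was also below 0 without siControl replicate 2 (-0.0613 FPKM), siNCOA4 replicate 2 (-0.653 FPKM), or siControl+DFO replicate 2 (-0.239 FPKM) or 3 (-0.117 FPKM). The excess depended on the scale. On the log2 scale with 0.1 added to each FPKM, Ces2e changed from siControl by 2.51 with siNCOA4, 5.35 with DFO and 7.07 with both. The combined change was there below the sum of the single ones, and so it was for Cd80 and 4833427G06Rik. Ces2e was listed at 0 in siControl, so its log2 changes depend on the value added. All of these values use the groups that chose the genes, and no test is given, also not of a difference between the genes.

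**Figure D2:**
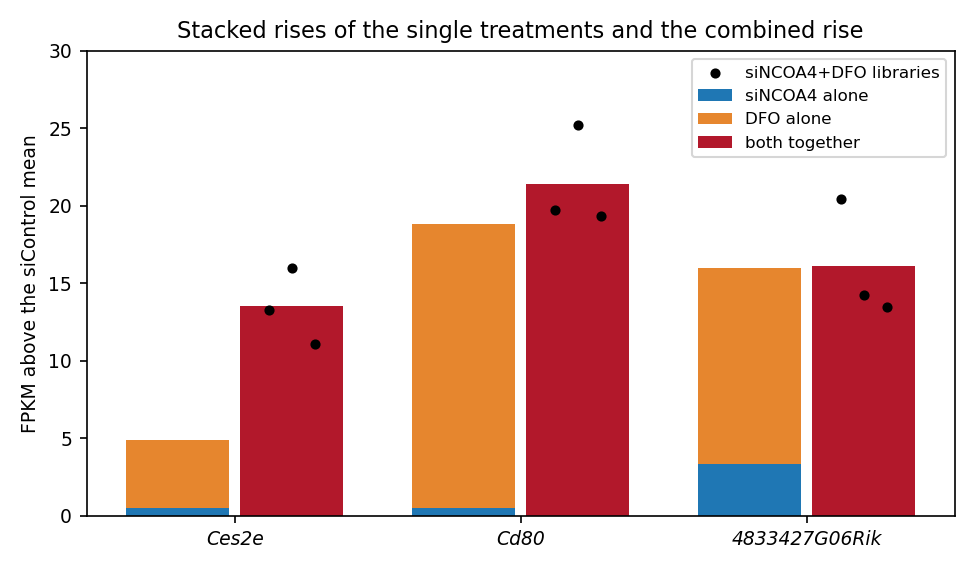
FPKM above the siControl mean (vertical axis, from 0) for the 3 genes; the left bar of each pair stacks the rises with siNCOA4 alone and DFO alone, the right bar is the rise with both, and black points are the 3 siNCOA4+DFO libraries. The right bar exceeds the stack for Ces2e (13.5 against 4.91 FPKM), while the bars of 4833427G06Rik are at 16.1 and 16.0 FPKM.

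The comparison of the single treatments with each other was tested, on log2(FPKM + 0.1) with limma over all 12 libraries and Benjamini-Hochberg adjustment over the 11924 genes. Each member was higher after DFO than after Ncoa4 siRNA, in every library of one group against every library of the other. The share of all genes separated in this way was not counted, so the separation is not read as particular to the members. Ces2e was higher by 2.84 on the log2 scale (SE 0.38, adjusted p = 5.62e-05), and the ratio of the mean FPKM was 9.0. Cd80 was higher by 4.75 (SE 0.51, adjusted p = 8.39e-06), with a ratio of means of 26.4 that was 48.0 without siNCOA4 replicate 2. 4833427G06Rik was higher by 1.91 (SE 0.52, adjusted p = 0.00824), with a ratio of means of 3.65. The spread in this fit came from all 4 groups, those that chose the genes included. With the siControl+DFO and siNCOA4 libraries alone in the fit the adjusted p was 9.74e-04 for Ces2e, 4.21e-05 for Cd80 and 5.70e-04 for 4833427G06Rik. Each member was thus called higher at a fold above 2 and an adjusted p below 0.05, as were 11.1% of all genes tested. The count of members is not read against that share, because Ces2e and Cd80 passed the filter through libraries with DFO and all were chosen for being highest in a group with DFO. In the exact two-sided permutation test over 3 and 3 libraries, each member gave p = 0.1, the smallest value that this design allows. The call of 4833427G06Rik was lost with a pseudocount of 0.01, where its difference was 1.94 and its adjusted p = 0.152; over the other alternatives its adjusted p ran from 5.82e-05 to 0.039.

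Ces2e lies within a run of Ces2 genes on chromosome 8, and the 2 genes that follow it were also higher with DFO. Ces2f begins 12682 bases after the end of Ces2e and Ces2g 26923 bases after it. Both encode carboxylesterases of the same family. Ces2f was at 0.584, 0 and 0 FPKM in siControl, 0.596, 0.616 and 0 in siNCOA4, 8.09, 10.2 and 8.12 in siControl+DFO, and 19.0, 14.1 and 8.0 in siNCOA4+DFO. Ces2g was the one with a level in control cells, at 5.06, 5.18 and 4.32 FPKM in siControl and 5.62, 6.49 and 4.95 in siNCOA4. With DFO it was at 15.8, 21.2 and 17.5 FPKM, and with both treatments at 23.5, 25.1 and 19.6. Both genes thus separated the libraries with DFO from those without, and overlapped between siControl+DFO and siNCOA4+DFO. Relative to siControl, Ces2f rose by 5.54 with DFO (SE 0.81, adjusted p = 1.08e-04) and by 6.10 with both (adjusted p = 5.86e-05), on the log2(FPKM + 0.1) scale. Ces2f was also the gene ranked next after the members by the last of these changes. Ces2g rose by 1.88 with DFO (SE 0.15, adjusted p = 6.34e-07) and by 2.20 with both (adjusted p = 2.61e-07).

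In siNCOA4+DFO against siControl+DFO, neither neighbour was called. The log2 difference was 0.56 (SE 0.81, adjusted p = 0.686) for Ces2f and 0.32 (SE 0.15, adjusted p = 0.149) for Ces2g, and their ratios of means were 1.56 and 1.25, beside 3.05 for Ces2e. Whether Ces2e differs from its neighbours in this ratio was not tested, since Ces2e was chosen by it. The transcripts of these genes share little sequence over the length of a read. Of the windows of 75 bases in Ces2e transcripts, 0.334% also occur in another gene (Ces2g), beside 0.264% for Ces2f and 0.603% for Ces2g. For Cd80 and 4833427G06Rik no window occurred in another gene.

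**Figure D3:**
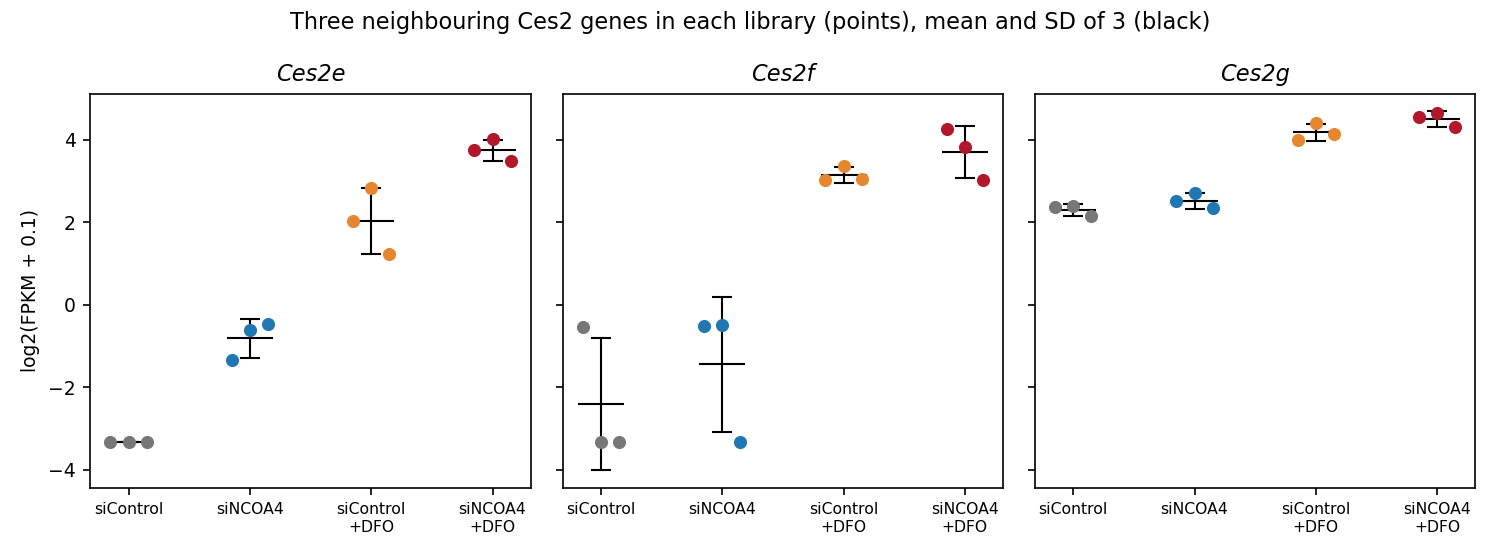
Levels of Ces2e, Ces2f and Ces2g on the log2(FPKM + 0.1) scale (shared vertical axis) in the 4 groups; points are libraries and black bars the mean and SD of 3, and a gene listed at 0 sits at the bottom. Ces2f and Ces2g are higher in both DFO groups, and Ces2g has a level in siControl (4.85 FPKM) where Ces2e is listed at 0.

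The rest of the cluster was at or near 0. Of the 10 nearest annotated genes, 5 on each side of Ces2e, the 2 described passed the filter. Ces2h was listed at 0 in all libraries, and Ces2a, Ces2b, Ces2c and the pseudogene Ces2d-ps did not exceed 0.337 FPKM in any library. Over the whole set of carboxylesterases and related esterases, 23 of 24 genes were found in the files and 5 passed the filter. With DFO 2 of the 5 rose and 0 fell, and with both treatments 2 rose and 1 fell. The background over all genes tested was 11.1% higher and 7.76% lower with DFO, and 9.24% higher and 5.93% lower with both. The median log2 change of the 5 was 0.26 with DFO and -0.11 with both, beside -0.011 and 0.010 over all genes tested. With siNCOA4 against siControl, 0 of the 5 rose and 1 fell, where the background was 0.805% higher and 0.973% lower. In siNCOA4+DFO against siControl+DFO, again 0 rose and 1 fell, where it was 1.07% higher and 1.01% lower.

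The gene that fell was Esd, an esterase of the formaldehyde detoxification pathway. Its mean was 63.5 ± 7.99 FPKM in siControl and 27.9 ± 3.54 in siNCOA4, and 75.6 ± 4.57 in siControl+DFO and 27.8 ± 3.41 in siNCOA4+DFO. It fell by 1.19 on the log2 scale with siNCOA4 (adjusted p = 9.26e-05) and by 1.45 with siNCOA4+DFO relative to siControl+DFO (adjusted p = 3.52e-05). Its log2 change with DFO alone was 0.26 (adjusted p = 0.0907). Nceh1, a cholesterol ester hydrolase of the endoplasmic reticulum, was called in none of the 4 comparisons, with log2 changes between -0.50 and 0.10. The lowest of these, with siNCOA4, had an adjusted p of 0.0379 by limma at a fold under 2. Ces1a, of the related CES1 family, was at 0.762 FPKM or below in all libraries and was not called either. Markers of hepatocytes and enterocytes, the cells in which CES2 enzymes are best known, were near absent. None of 8 passed the filter, their sum stayed at or below 0.391 FPKM in every library, and Ttr, Fabp1 and Fabp2 were listed at 0 throughout.

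Cd80 stood among costimulatory ligands of which few were expressed. Of 20 such ligands and receptors, 19 were found in the files and 5 passed the filter. Cd86, the other B7 ligand of CD28, was listed at 0 in all 12 libraries, as were the receptors Ctla4 and Icos and the activating receptor Cd40. With DFO, 3 of the 5 rose and 1 fell relative to siControl, and with both treatments 2 rose and 0 fell, beside 11.1% higher and 7.76% lower of all genes tested with DFO and 9.24% and 5.93% with both. Tnfsf18, 1 of the 3 that rose, passed the filter only through libraries with DFO, so the counts are not read against these shares. The median log2 change of the 5 was 1.45 with DFO and 0.92 with both. With siNCOA4 none was called by limma with a fold above 2 and an adjusted p below 0.05, and 2 of the 5 had an unadjusted p below 0.05. In siNCOA4+DFO against siControl+DFO none was called either, and 2 had an unadjusted p below 0.05. Cd274, which encodes the inhibitory ligand PD-L1, was at 0.281, 0.373 and 0.639 FPKM in siControl and 1.07, 0.890 and 0.729 in siNCOA4. It was at 3.62, 3.82 and 5.57 FPKM in siControl+DFO and 5.06, 4.13 and 3.43 in siNCOA4+DFO. It rose by 3.09 with DFO (SE 0.29, adjusted p = 3.17e-06) and by 3.06 with both (adjusted p = 4.69e-06). Tnfsf9, the ligand of 4-1BB, rose from 7.51 ± 0.487 FPKM in siControl to 21.0 ± 4.74 with DFO and 24.2 ± 4.61 with both (log2 changes 1.45 and 1.66, adjusted p = 1.57e-05 and 7.05e-06).

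Among the other 3 costimulatory genes tested, 1 rose and 1 fell with DFO. Tnfsf18, the ligand of GITR, rose with DFO from 0.151 ± 0.0178 to 1.04 ± 0.369 FPKM (log2 change 2.14, adjusted p = 0.00335), and was at 0.408 ± 0.216 with both. This call was lost with a pseudocount of 1 (0.81). Cd276, a further B7 family member, fell by 1.03 with DFO (adjusted p = 6.84e-06), from 16.6 ± 0.810 to 8.07 ± 0.854 FPKM, and was at 9.19 ± 0.436 with both. Tnfrsf14, the receptor HVEM, was not called in the 4 comparisons. Markers of antigen-presenting cells moved with DFO in part. Of 13 markers, 3 passed the filter (Cd68, Cd14 and Cd74). The sum of the 13 lay between 4.65 and 6.38 FPKM in siControl, 5.81 and 8.09 in siNCOA4, 15.5 and 16.3 in siControl+DFO, and 8.64 and 15.3 in siNCOA4+DFO. Cd14, the lipopolysaccharide co-receptor, rose by 2.1 with DFO (adjusted p = 5.13e-06), and Cd74, the invariant chain, by 1.38 (adjusted p = 0.00156). Cd68 was not called with DFO (0.29, adjusted p = 0.536) or with both (0.60, adjusted p = 0.204). With both, Cd14 rose by 1.57 (adjusted p = 6.71e-05), and Cd74 was not called (0.92, adjusted p = 0.0195). The class II genes H2-Aa and H2-Ab1 and the myeloid adaptor Tyrobp were listed at 0 in all libraries, and the part of the other markers in the Cd80 level was not tested.

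The neighbours of Cd80 on chromosome 16 were for the most part not called. Of 10 neighbours, 8 passed the filter. With DFO 1 was called and it rose, and with both treatments 2 rose, where 11.1% and 9.24% of all genes tested were called higher. The 2 genes, Maats1 and Pla1a, passed the filter only through libraries with DFO or Ncoa4 siRNA, in which they were high. The counts are thus not read against these shares. The median log2 change of the 8 was 0.25 with DFO and 0.32 with both. Adprh and Timmdc1, the nearest genes on either side, had log2 changes of -0.61 and -0.27 with DFO (adjusted p = 0.00592 and 0.131 by limma) and were not called. Pla1a, a phospholipase, rose by 1.94 with siNCOA4 (SE 0.54, adjusted p = 0.0379) and by 2.31 with both (adjusted p = 0.00378), at levels that did not exceed 0.805 FPKM. The first of these calls was lost in 10 of the 18 alternatives in which the gene was tested, leaving out single libraries included, and the second with a pseudocount of 1 (0.60). Maats1, a gene of motile cilia, rose by 2.89 with DFO (SE 0.58, adjusted p = 0.00123) and by 3.36 with both (adjusted p = 4.63e-04), from at most 0.0994 FPKM in siControl to between 0.519 and 2.29 FPKM in siNCOA4+DFO. The call with DFO was lost with a pseudocount of 1 (0.86).

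4833427G06Rik shares its start region with other genes. On GRCm38, the RefSeq span of Btg4, an oocyte factor of messenger RNA decay, begins at base 51102147 of chromosome 9, with 68 bases between it and the first base of 4833427G06Rik, and runs the other way. The microRNA genes Mir34b and Mir34c lie just beyond, within the longer RefSeq span of 4833427G06Rik, which ends at base 51105834. Btg4 was listed at 0 in the 6 libraries without DFO and did not exceed 0.506 FPKM with it, and Mir34b and Mir34c were listed at 0 in all. Libraries of total RNA made this way do not report mature microRNAs. The kit keeps the strand, but whether strand was used in counting is not given in the sources used here, so reads from the overlapping parts may be assigned to either gene. Of the 10 neighbours, 6 passed the filter, and with both treatments none of them was called by limma. Layn and Ppp2r1b had log2 changes of -0.73 and -0.53 (adjusted p = 0.0078 and 0.00221), under a fold of 2. With DFO theirs were -0.63 and -0.48 (adjusted p = 0.0156 and 0.00353). The 1 gene called with DFO was Fdxacb1, which fell by 1.57 on the log2 scale (SE 0.46, adjusted p = 0.0127), a call lost in 3 of 21 alternatives.

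Genes of the axoneme and cilium were a mixed group. Of 30 such genes 11 passed the filter. With DFO 3 rose and 1 fell, where 11.1% of all genes tested were called higher and 7.76% lower. With both treatments 4 rose and 1 fell, where it was 9.24% and 5.93%. Tekt4, Dnaic2 and Enkur would not have passed the filter without the libraries with DFO, in which they were high. The counts are thus not read against these shares. With siNCOA4 none was called by limma, and 4 of the 11 had an unadjusted p below 0.05. The median log2 change of the 11 was 0.09 with DFO and 0.22 with both. Arl13b, a small GTPase of the ciliary membrane, was the one with the highest level among those that rose. It was at 8.51 ± 0.508 FPKM in siControl, 10.7 ± 0.576 in siNCOA4, 24.2 ± 1.26 in siControl+DFO and 21.8 ± 3.07 in siNCOA4+DFO, and rose by 1.5 with DFO (SE 0.11, adjusted p = 2.82e-07) and by 1.34 with both (adjusted p = 9.84e-07). Tekt4, a tektin of the ciliary microtubules, was detected with DFO alone or combined. It was listed at 0 in the 6 libraries without DFO, at 0.445, 0.189 and 0.601 FPKM in siControl+DFO, and at 1.27, 1.57 and 0.765 FPKM in siNCOA4+DFO, and was called in both (adjusted p = 0.00364 and 1.30e-04), the first of these calls being lost with a pseudocount of 1. The dynein chain gene Dnaic2 rose by 2.17 with DFO (adjusted p = 0.00745) and by 2.22 with both (adjusted p = 0.00712), at 0.917 FPKM or below, and both calls were lost with a pseudocount of 1 (0.57 for each). Enkur, a sperm flagellum gene, rose with both treatments (log2 change 2.55, SE 0.87, adjusted p = 0.0283), though its siNCOA4+DFO libraries ran from 0.259 to 2.35 FPKM and overlapped with siControl, and the call was lost in 7 of 21 alternatives. Nme7, of the axonemal microtubules, fell by 1.18 with DFO (adjusted p = 9.38e-04). 1700026D08Rik, listed in RefSeq as Cfap161, was called only with both treatments, and at low levels. It was at 0.569, 1.13 and 0.487 FPKM in siControl, between 0.435 and 0.810 in siNCOA4 and between 0.686 and 0.807 in siControl+DFO, and was listed at 0 in all 3 siNCOA4+DFO libraries. It was called lower there, relative to siControl (adjusted p = 1.18e-04) and to siControl+DFO (adjusted p = 9.90e-04), the 1 ciliary gene called in the latter comparison. Both calls were lost with a pseudocount of 1, where the log2 differences were -0.77 and -0.80. The SD was 0.0616 FPKM in siControl+DFO and 0 in siNCOA4+DFO, and the fragments behind these levels were not counted. They may be few, so the spread used in the fit may be too small.

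The other ciliary genes that passed the filter were not called in these 4 comparisons, though in 4 of them a change under a fold of 2 had an adjusted p below 0.05 by limma. Cfap20 was between 22.2 and 33.0 FPKM in all libraries. Mns1, of flagellar doublet microtubules, had log2 changes of -0.72 with DFO (adjusted p = 0.015) and -0.42 with both (0.133). The transport genes Ift57 and Ift88 had changes of -0.76 and -0.44 with DFO (adjusted p = 5.79e-04 and 0.035). In siNCOA4+DFO against siControl+DFO these 2 were higher by 0.54 and 0.67 (adjusted p = 0.0205 and 0.0157). Cfap69 had changes of -0.70 with DFO (adjusted p = 0.0467) and -0.89 with both (0.0163).

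**Figure D4:**
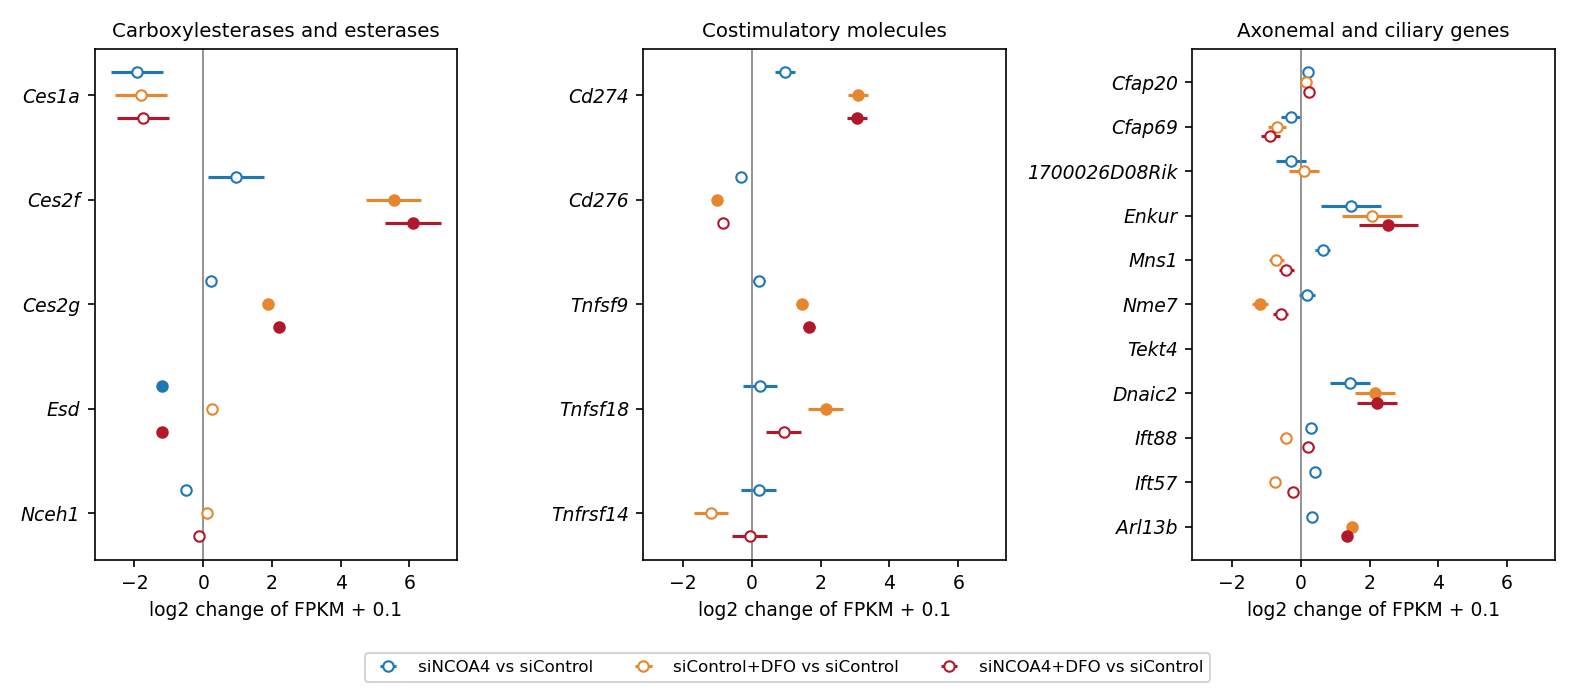
Log2 change of FPKM + 0.1 relative to siControl (horizontal axes) for the genes of the 3 lists that passed the filter, with siNCOA4 in blue, siControl+DFO in orange and siNCOA4+DFO in red; bars are the standard error of the fit, filled points were called, and no point is drawn where a group was listed at 0. Ces2f (6.10 with both), Ces2g (2.20), Cd274 (3.06), Tnfsf9 (1.66) and Arl13b (1.34) are to the right, and Esd (-1.19) is to the left in blue and red.

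The genes whose levels were most like each member were sought over the 12 libraries on the log2(FPKM + 0.1) scale, as a description. For Ces2e they were Wdr35 (Pearson r = 0.985), Inpp5d (0.985), Celf4 (0.981), Slc7a11 (0.979) and Commd3 (0.978). Slc7a11 encodes the cystine and glutamate antiporter and was at 1.20 to 1.55 FPKM in siControl and 24.4 to 25.9 in siNCOA4+DFO. Inpp5d, the lipid phosphatase SHIP1 of blood cells, was at 0.0564 to 0.0708 FPKM in siControl, 0.452 to 0.618 in siNCOA4, 3.61 to 5.00 in siControl+DFO and 5.36 to 8.55 in siNCOA4+DFO. For Cd80 they were Cep162 (0.990), Ereg (0.989), Ifit3 (0.986), Tmtc3 (0.985) and Nrd1 (0.985). Ereg, the growth factor epiregulin, was at 0.490 to 0.901 FPKM in siControl and 11.5 to 13.8 in siControl+DFO. Nrd1 had an r as high although it moved only from between 104 and 108 FPKM in siControl to between 131 and 135 in siControl+DFO. For 4833427G06Rik they were Col11a2 (0.982), Ankib1 (0.976), Gbp3 (0.966), Chrnb1 (0.964) and Slbp (0.963). Gbp3, a guanylate-binding protein, was at 0.455 to 0.742 FPKM in siControl, 2.31 to 3.07 in siNCOA4, 9.04 to 11.4 in siControl+DFO and 10.2 to 16.8 in siNCOA4+DFO.

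The lists of most similar genes shared no gene, and the members were less like each other than like these. The correlation was 0.945 between Ces2e and Cd80, 0.907 between Ces2e and 4833427G06Rik, and 0.874 between Cd80 and 4833427G06Rik. Cd80 was thus only rank 109 of 11924 among the genes most like Ces2e. The 12 points share their groups, so these values reflect the 4 group means more than 12 separate measurements. The choice also depended on the scale, since 1 of the 5 genes named for Ces2e, 1 of those for Cd80 and 2 of those for 4833427G06Rik remained among the top 5 with a pseudocount of 1.

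Ranked by the change from siControl to siNCOA4+DFO among genes with a mean of at least 1 FPKM, the members filled the first 3 places, which is the selection itself. The genes just outside were Ces2f, Btg2 and Rsad2, given as values. Ces2f went from a mean of 0.195 to 13.7 FPKM, as described. Btg2, an antiproliferative gene, went from 1.88 to 130.0 FPKM and had its highest levels with DFO alone, at 160.0 to 164 FPKM. Rsad2, the antiviral protein viperin, went from 0.167 to 14.5 FPKM and was at 18.9 to 23.1 FPKM with DFO alone. In both of these genes the mean with DFO alone, 161 FPKM for Btg2 and 20.8 FPKM for Rsad2, was above that with both treatments, whereas in each member it was below by selection.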

How the data were processed

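HT22 cells were profiled by RNA-seq in 4 groups with 3 biological replicates per group (12 libraries), as the sample labels give them. The authors deposited 1 table of FPKM values per library with 24347 gene entries each, of which 24343 with a unique name were used. The submitters' processing notes name Trimmomatic 0.33, FastQC, HISAT2 2.1.0, featureCounts, edgeR and the build mm10, which is GRCm38. The annotation is not given in the sources used here. Libraries were made from total RNA with a stranded kit.

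FPKM are not counts, so no count test was used. Genes with at least 0.5 FPKM in at least 3 libraries were kept (11924). The 12 libraries entered one limma 3.58.1 model of group means (R 4.3.3) on log2(FPKM + 0.1), with variances moderated along a mean-variance trend (residual df 8, prior df 4.07). Benjamini-Hochberg adjustment was applied within a comparison, and a gene was called when it passed both a fold of 2 and an adjusted p of 0.05. A log2 change on this scale understates the change of low genes, and an FPKM of 0 is given as listed. The members and lists were chosen with earlier results of these data known. The members were selected by their siControl and siNCOA4+DFO levels, so they were tested in the difference between siControl+DFO and siNCOA4 alone. Named genes were the members, Ncoa4, the 3 genes ranked next by rise, the 5 genes with the highest correlation with each member, genes of the lists of esterases, costimulatory molecules and ciliary genes that were called or reached a group mean of 1 FPKM, and the 5 nearest genes on each side. Tests on simulated data for the difference between siControl+DFO and siNCOA4 recovered 84% of 200 changed genes, with 3 of 171 calls false. P-values measure the spread between 3 biological replicates of 1 cell line. Start sites came from RefSeq and gene spans from GENCODE M21 or RefSeq, both on GRCm38. All 3 members matched a RefSeq entry, 4833427G06Rik as a synonym of Hoatz. Python 3.11.15 (pandas 2.3.3, numpy 2.4.6) was used for sequences and matplotlib 3.10.9 for figures. Alternatives were pseudocounts of 1 and 0.01, no filter, a filter of 2 FPKM, quantile and median-of-ratios scaling, a block for the replicate number, a fit of only the compared groups, robust moderation and moderation with no trend, an adjusted p alone for counts of genes, and each of the 12 libraries left out.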

Additional observations from a re-analysis of the deposited data

Results flagged for a closer look

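Of 35 related and neighbouring genes with a test of the interaction between Ncoa4 siRNA and DFO, 1 had an adjusted p below 0.05, beside 2.1% of all 11924 genes tested. In 1700026D08Rik (Cfap161, a ciliary gene) the effect of Ncoa4 siRNA differed between cells with and without DFO by -2.78 on the log2(FPKM + 0.1) scale (SE 0.61, adjusted p = 0.0403 over all 11924 genes by limma). Its means were 0.729 FPKM in siControl, 0.565 in siNCOA4 and 0.740 in siControl+DFO, and it was listed at 0 in the 3 siNCOA4+DFO libraries, so the size depends on the pseudocount. The fragments behind these low levels were not counted and may be few, so the spread and the adjusted p are uncertain as well. In siNCOA4+DFO against siControl+DFO adding 0.1 gave a log2 difference of -3.07 and adding 1 gave -0.80, under a fold of 2, so that this call was lost. The interaction itself was fitted only with 0.1 added. A count of 1 among 35 is near the share of all genes and is not read as a result about these genes. The members themselves were not tested for an interaction, since the groups it uses chose them.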

How the results depend on the processing

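The difference between siControl+DFO and siNCOA4 kept its direction for the 3 members under every alternative. Leaving out single libraries gave 2.44 to 3.24 for Ces2e, 4.39 to 5.27 for Cd80 and 1.57 to 2.1 for 4833427G06Rik on the log2 scale, with each call kept. Only the call of 4833427G06Rik with a pseudocount of 0.01 was lost (1.94, adjusted p = 0.152), and for Ces2e and Cd80 the highest adjusted p over the alternatives was 9.74e-04 and 0.0014.

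Libraries with the same replicate number showed little shared deviation. The correlations of their deviations over 18 pairs lay between -0.127 and 0.116, with 2 above 0.1. Low values cannot show that the libraries were unpaired, and the labels do not give a pairing. With the replicate block the differences remained 2.84 (adjusted p = 1.17e-04), 4.75 (7.41e-06) and 1.91 (0.0147), the counts of genes called were 193 for siNCOA4, 2238 for DFO, 1801 for both, 239 for both against DFO and 2261 for DFO against siNCOA4, and among the named calls that of Pla1a with siNCOA4 was lost (adjusted p = 0.0644).

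Over all genes, 212 were called for siNCOA4, 2244 for DFO and 1809 for both against siControl, 249 for both against DFO and 2268 for DFO against siNCOA4. By an adjusted p alone the counts were 1399, 6365, 5819, 1963 and 6449, and with a pseudocount of 1 they were 112 for siNCOA4 and 129 for both against DFO. Leaving out single libraries gave 164 to 220, 2149 to 2258, 1658 to 1957, 180 to 294 and 2176 to 2275 calls. Of the lists, the costimulatory genes had 1 call with siNCOA4 at a pseudocount of 0.01 (0 to 1 without single libraries, 1 without siControl replicate 3) and 2 with DFO at a pseudocount of 1. The ciliary genes had 2 calls with DFO and 2 with both at a pseudocount of 1, 2 and 1 with a filter of 2 FPKM, and for both against DFO 0 in these settings, and 2 with no filter or moderation without a trend.

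Of 34 named calls of related and neighbouring genes, 13 were lost at least once and none reversed. With a pseudocount of 1 the log2 changes that fell under a fold of 2 were those of Cd276 (-0.96), Tnfsf18 (0.81), Tekt4 (0.49), Dnaic2 (0.57 with DFO and with both), Maats1 (0.86) and Fdxacb1 (-0.75) with DFO, 1700026D08Rik (-0.77) and Enkur (0.93) with both, 1700026D08Rik for both against DFO (-0.80), and Pla1a with siNCOA4 (0.46) and with both (0.60). Without single libraries, Pla1a with siNCOA4 was lost without replicates 1 or 2 of siControl (1.72 for either), 2 or 3 of siNCOA4 (2.17 and 2.01), or 2 or 3 of siControl+DFO (1.94 for either). Enkur was lost without replicates 1 or 2 of siControl (2.03 for either) or 1 or 3 of siNCOA4+DFO (2.18 and 2.05), and Fdxacb1 without replicate 2 of siControl (-1.26) or 1 of siControl+DFO (-1.09). Cd276 and Nme7 fell under a fold of 2 without replicates 1 and 3 of siControl+DFO (-0.94 for each). The cause of these changes was not tested beyond the settings' own construction.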
